A study of Homo sapiens with 6 samples.

Results

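The S100 calcium-binding proteins were examined in RNA sequencing of A431 cells with and without the desmosomal cadherin Desmoglein-2 (Dsg2). The 10 genes described are S100A2, S100A4, S100A6, S100A8, S100A9, S100A10, S100A11, S100A14, S100A16 and S100P, chosen by name from the 21462 gene symbols of the count table. A431 is an established human epidermoid carcinoma line of keratinocyte character. Control cells (A431CT, genotype WT) and Dsg2 knockout cells (Dsg2KO, made by CRISPR/Cas9 editing of DSG2) were grown alike in DMEM with fetal bovine serum, with 3 libraries per condition. The sources used here do not say whether the knockout line is a clone or a pool, so a difference that arose when the line was made cannot be told apart from an effect of losing Dsg2.

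S100 proteins are small proteins that bind calcium through paired EF-hand motifs and mostly act as dimers. Inside the cell they bind target proteins such as annexins and myosin when calcium rises, and several are also released and act as alarm signals on surface receptors. Most of the genes lie together on the long arm of chromosome 1, beside the epidermal differentiation complex whose genes build the cornified layer of the skin. In the epidermis S100A8 and S100A9 are known for their induction in psoriasis and wounding, while S100A2 is known as a gene of basal keratinocytes.

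The libraries held between 12845719 and 16255692 counts, at which 3 counts correspond to between 0.184 and 0.236 CPM (a gene's count relative to its library total in the usual CPM unit, after scaling with edgeR's TMM factors), a limit that covers counting error only. Counts on DSG2 left the conditions far apart, at 323 ± 6.08 CPM (SD, n = 3) in A431CT cells and 51.9 ± 2.88 CPM (SD, n = 3) in Dsg2KO cells (log2 fold change -2.64, SE 0.05, edgeR quasi-likelihood adjusted p = 1.29e-14). Of 10 keratinocyte markers, KRT5, TP63 and CDH1 were at 630, 210 and 369 CPM in A431CT cells, whereas KRT14 and PKP1 had at most 2 counts in any library. The summed level of the 10 markers was 10395 to 11108 CPM in A431CT cells and 11321 to 11716 CPM in Dsg2KO cells, most of it EGFR at 8451 and 9134 CPM. S100A8 and S100A9 are also abundant in myeloid cells, so 10 myeloid markers were read as well. FCN1 had no count, and MPO, FCGR3A, CSF3R and TYROBP had at most 3 counts in any library. The myeloid list summed to between 541 and 572 CPM in A431CT cells and between 496 and 515 CPM in Dsg2KO cells. Nearly all of it was CSF1R, at 552 CPM in A431CT cells and 502 CPM in Dsg2KO cells. The lists for fibroblasts and melanocytes summed to at most 3.82 and 18.7 CPM.

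S100A2 and S100A6 fell in Dsg2KO cells, by 0.36 and 0.27 on the log2 scale, and these were the only members with an adjusted p-value under 0.05. S100A8 had too few counts to be tested, and the other 7 members did not pass. The study's thresholds ask for an adjusted p-value under 0.05 together with a change of at least 0.5 on the log2 scale. None of the 9 tested members passed both, where 6.03% of all 12857 tested genes did (2.99% higher and 3.03% lower). By the adjusted p-value alone 2 of 9 members passed, both lower (22.2%), where 29.6% of all tested genes did (14.3% higher and 15.3% lower). At an unadjusted p under 0.05 the number was 4 of 9, where 39.5% of all tested genes passed. DESeq2 called 2 members by its adjusted p-value, where 21.3% of its genes passed, and 0 members past both thresholds. The 95% interval of the log2 fold change lay wholly within ±0.5 for 7 of the 9 members, which bounds their change below that size at this level of confidence. The exceptions were S100A4 and S100P. The median log2 fold change of the 9 members was -0.0087, beside -0.0048 for all tested genes.

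**Figure D1:**
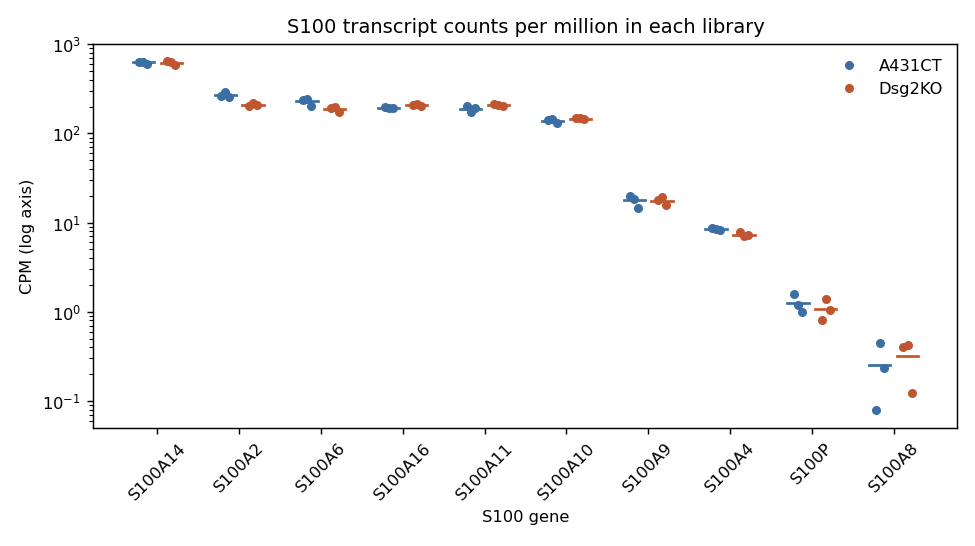
CPM (log axis) of the 10 S100 genes in each library, A431CT in blue and Dsg2KO in orange, with a bar at the mean of 3 libraries. CPM is not corrected for gene length, so the conditions are to be compared within a gene. The conditions did not overlap for S100A2, S100A4, S100A6 and S100A16, and the same held for 42.6% of all tested genes.

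S100A2 is a mainly nuclear S100 protein of basal keratinocytes. Its gene lies on chromosome 1 of GRCh38 from 153561108 to 153567890 on the minus strand, with 3 exons in the canonical transcript. Its level was 264, 294 and 254 CPM in the A431CT libraries and 206, 219 and 208 CPM in the Dsg2KO libraries. Every Dsg2KO library therefore lay below every A431CT library. The means were 271 ± 21.1 CPM (SD, n = 3) and 211 ± 7.04 CPM (SD, n = 3), a level 0.779 times that of A431CT cells. The log2 fold change was -0.36 (standard error 0.05, 95% interval -0.47 to -0.25, edgeR adjusted p = 8.81e-05).

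S100A6, or calcyclin, binds the calcyclin-binding protein CACYBP and annexin 11 and is abundant in dividing cells. It lies from 153534599 to 153536244 on chromosome 1, and 37 of its 971 exon bases overlap a noncoding RNA gene on the opposite strand. S100A6 stood at 237, 243 and 205 CPM in A431CT cells and at 194, 198 and 176 CPM in Dsg2KO cells. The highest Dsg2KO library was below the lowest A431CT library by less than the range within either condition. Its means were 228 ± 20.2 and 189 ± 11.9 CPM (SD, n = 3 each), and the log2 fold change was -0.27 (standard error 0.06, 95% interval -0.40 to -0.14, adjusted p = 0.0031 from edgeR). CACYBP, its partner, had a log2 fold change of 0.06 and did not pass.

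S100A4 binds nonmuscle myosin heavy chain and is best known from motile and mesenchymal cells. It lies between S100A6 and S100A2, from 153543613 to 153550136, and the annotated span of S100A3 overlaps it without sharing exon bases. Its counts were low, 108 to 117 per library, and gave 8.73, 8.55 and 8.37 CPM in A431CT cells and 7.78, 7.03 and 7.23 CPM in Dsg2KO cells. The conditions did not overlap, but the log2 fold change of -0.22 (standard error 0.14, 95% interval -0.51 to 0.07) did not pass (adjusted p = 0.26, edgeR). The interval held both 0 and -0.5. In all, 4 of the 9 tested members had conditions that did not overlap (44.4%), 3 with Dsg2KO below and 1 with Dsg2KO above, where 42.6% of all tested genes did so (21.4% below and 21.2% above).

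S100A10 and S100A11 are annexin partners. S100A10 forms a complex with annexin A2 at the plasma membrane, where it can hold plasminogen, and is unusual in the family in having lost calcium binding. Its level was 143, 144 and 130 CPM in A431CT cells and 147, 148 and 144 CPM in Dsg2KO cells, and the conditions overlapped. The log2 fold change was 0.07 (standard error 0.05, 95% interval -0.02 to 0.17, adjusted p = 0.25, edgeR). S100A11, which binds annexins A1 and A2 and takes part in membrane repair and keratinocyte growth arrest, was at 205, 176 and 190 CPM in A431CT cells and 216, 209 and 201 CPM in Dsg2KO cells. A431CT replicate 1 lay inside the range of the Dsg2KO libraries, and the other A431CT libraries lay below it. The log2 fold change was 0.13 (standard error 0.05, 95% interval 0.03 to 0.24, adjusted p = 0.0607, edgeR). Without A431CT replicate 1 its adjusted p-value was 0.0166 with a log2 fold change of 0.19, and over all alternatives the adjusted p-value ran from 0.0166 to 0.24. GENCODE lists 8 processed pseudogenes of S100A11, and how reads matching several places were counted is not given in the sources used here.

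S100A14 and S100A16 are epithelial S100 proteins encoded side by side on chromosome 1, from 153614255 to 153616986 and from 153606886 to 153613145. S100A14, the highest member per kilobase, was at 630, 638 and 606 CPM in A431CT cells and 641, 638 and 586 CPM in Dsg2KO cells. Its conditions overlapped fully, and the log2 fold change was -0.0076 (standard error 0.04, 95% interval -0.09 to 0.08, adjusted p = 0.91, edgeR). The sign turned with the scaling, to 0.015 with total counts. S100A16 was at 195, 195 and 192 CPM in A431CT cells and at 208, 214 and 201 CPM in Dsg2KO cells. All 3 Dsg2KO libraries lay above all A431CT libraries. The log2 fold change was 0.10 (standard error 0.04, 95% interval 0.01 to 0.18), and the adjusted p-value of 0.0727 (edgeR) missed the threshold. It was 0.045 without Dsg2KO replicate 3 and between 0.029 and 0.23 over all alternatives.

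S100A8 and S100A9 are the subunits of calprotectin, a heterodimer that withholds zinc and manganese from microbes and signals to inflammatory receptors. They were far from equal in these cells. S100A9, from 153357854 to 153361023 on the plus strand, was at 20.1, 18.3 and 14.7 CPM in A431CT cells and 18.0, 19.2 and 15.6 CPM in Dsg2KO cells. The ranges lay on top of each other, and the log2 fold change was -0.0087 (standard error 0.12, 95% interval -0.26 to 0.24, adjusted p = 0.97, edgeR). The sign of so small a value turned under 5 of 13 alternatives, among them the omission of A431CT replicate 1, where it was 0.09. S100A8, from 153390032 to 153391073 on the minus strand, had 1, 6 and 3 counts in the A431CT libraries and 6, 7 and 2 counts in the Dsg2KO libraries. These sums of 10 and 15 counts are near the limit of 3 counts per library, and a difference was not detectable at this depth. Fitted without the low-count filter, its adjusted p-value was 0.84 (edgeR).

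S100P, which binds ezrin and is a marker of several carcinomas, is the only member outside chromosome 1, at 6693878 to 6697170 on the plus strand of chromosome 4. The A431CT libraries held 20, 16 and 13 counts and the Dsg2KO libraries 12, 23 and 17 counts, so the conditions overlapped. The log2 fold change of -0.19 had a 95% interval of -0.97 to 0.58 (adjusted p = 0.74, edgeR), which leaves room for a change past the threshold in either direction.

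**Figure D2:**
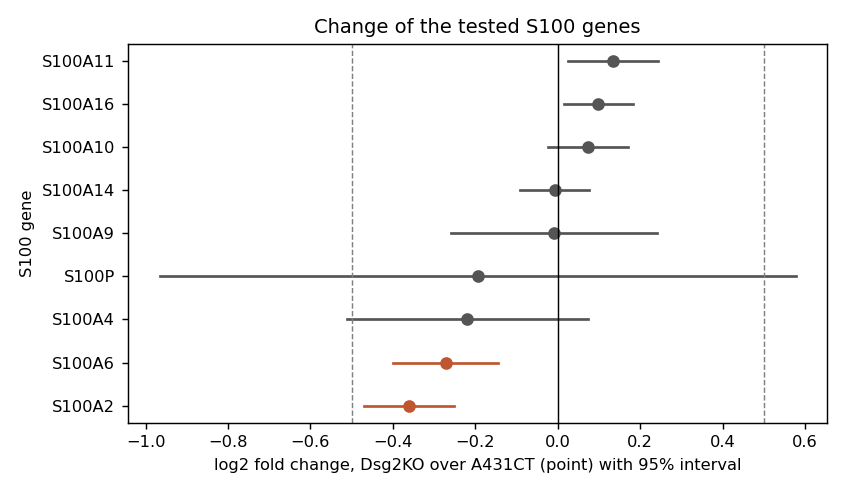
Log2 fold change of the 9 tested S100 genes in Dsg2KO over A431CT cells, with 95% intervals from edgeR's quasi-likelihood fit (3 libraries per condition). Orange marks an adjusted p-value under 0.05, reached by S100A2 (-0.36) and S100A6 (-0.27), and dashed lines stand at ±0.5, inside which 7 of the 9 intervals lie.

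To compare levels between genes, CPM was divided by length, giving CPM per kilobase of merged GENCODE exons. S100A14 led in A431CT cells with 489 ± 13.1 CPM per kilobase (SD, n = 3). S100A11 followed with 293 ± 22.3, S100A6 with 235 ± 20.8 and S100A2 with 175 ± 13.6. S100A10 and S100A16 were at 137 ± 7.58 and 114 ± 1.23, and none of these 6 neighbours in the order overlapped in their libraries. Next came S100A9 at 30.9 ± 4.79, S100A4 at 9.04 ± 0.189, S100P at 2.66 ± 0.615 and S100A8 at 0.282 ± 0.205. In Dsg2KO cells S100A2 dropped behind S100A10, at 136 ± 4.55 against 145 ± 2.11 CPM per kilobase (SD, n = 3 each), with every S100A10 library above every S100A2 library. The lengths assume all annotated exons, and the middle of the order depends on them. The place of S100A2 behind S100A10 in Dsg2KO cells was read with merged exons only, 1546 and 1012 bases. Their longest transcripts measure 977 and 671 bases, with which this order was not read.

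The 10 genes together took 0.166 ± 0.0065% of all counts in A431CT cells and 0.162 ± 0.0061% in Dsg2KO cells (SD, n = 3 each), and the libraries overlapped. Within that sum the mix moved. S100A2 supplied 16.2 ± 0.856% of the family's counts in A431CT cells and 13.1 ± 0.507% in Dsg2KO cells, and S100A6 13.6 ± 0.702% and 11.7 ± 0.293%. S100A4 went from 0.511 ± 0.0126% to 0.457 ± 0.0271% (SD, n = 3). S100A11 went from 11.4 ± 0.997% to 12.96 ± 0.284%, S100A16 from 11.6 ± 0.330% to 12.9 ± 0.184% and S100A10 from 8.30 ± 0.144% to 9.09 ± 0.222% (SD, n = 3). S100A14 remained the largest contributor, with 37.3 ± 0.458% and 38.6 ± 0.540% (SD, n = 3). Shares of a sum move against each other by construction, so these values describe the mix and add no test of a single gene.

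Promoter sequences are shown for the core motifs next to the start of transcription. The motif TATAAA, the core of the TATA box that positions the start of transcription, was found on the coding strand of S100A4, S100A8, S100A9 and S100P, beginning 28 to 31 bases before the start. These were the 4 members with the lowest level per kilobase in A431CT cells, but the near-identical TATAAG, searched for after the sequences were seen, began 30 and 29 bases before the start of S100A6 and S100A14, which were among the highest. A link between such a motif and the level was not tested. The last 60 bases before the start are given 5′ to 3′ from RefSeq on GRCh38.p14, with matches to the searched motifs in capitals, for the members whose stretch holds no annotated exon of the gene.
S100A8 (chr1:153391074-153391133, minus): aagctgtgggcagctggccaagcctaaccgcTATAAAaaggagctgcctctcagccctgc
S100A9 (chr1:153357794-153357853, plus): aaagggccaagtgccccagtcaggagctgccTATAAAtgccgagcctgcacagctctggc
S100P (chr4:6693818-6693877, plus): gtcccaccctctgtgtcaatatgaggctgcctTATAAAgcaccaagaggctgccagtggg
S100A4 (chr1:153545807-153545866, minus): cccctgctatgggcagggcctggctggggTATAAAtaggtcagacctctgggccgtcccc
S100A2 (chr1:153565845-153565904, minus): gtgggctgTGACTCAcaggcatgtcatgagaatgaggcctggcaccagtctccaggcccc
S100A10 (chr1:151993860-151993919, minus): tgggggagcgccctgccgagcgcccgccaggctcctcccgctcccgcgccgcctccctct
S100A11 (chr1:152037005-152037064, minus): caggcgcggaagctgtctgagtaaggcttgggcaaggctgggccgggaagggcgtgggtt

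Across all 35116 promoter windows of the RefSeq table, searched on both strands, TATAAA occurred in the last 60 bases of 3.75% and in the last 250 bases of 10.7%, and TATAAG in the last 60 bases of 1.74%. On both strands TATAAG was found in 3 of the 10 members, the other being S100P, where it lies on the opposite strand and overlaps the first motif. TGANTCA, which AP-1 factors bind, was found in 1 of the 10 S100 promoters over 250 bases and in 6.57% of all windows. That 1 match was TGACTCA in S100A2, which began 52 bases before the start. GGGCGG, the GC box, was found in S100A6, S100A9, S100A10 and S100A11 and in 42.6% of all windows, and S100A6 held 3 matches, of which the last pair overlapped. All 250 bases of the S100A6 window are also annotated as exon of S100A6. The same holds for 30 bases of the S100A14 window and 8 bases of the S100A16 window, each as exon of its own gene. The spellings TTCNNNGAA, of the kind bound by STAT factors, and TTGCNNAAT, of the kind bound by C/EBP factors, were found in 0 of the 10 promoters, beside 6.57% and 2.39% of all windows. A match describes these letters only and is not a measured binding site.

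S100A6, S100A4 and S100A2 stand close together in the chromosome 1 cluster, with S100A5 and S100A3 between them. Of the 9 tested members, they were the 3 whose conditions did not overlap with Dsg2KO below, beside 21.4% of all tested genes. S100A6, S100A4 and S100A2 were grouped with these values known, so their common direction is no result of its own. S100A4 did not pass the adjusted p-value (0.26, edgeR), and a shared change of the 3 was not tested. S100A5 had 1 to 6 counts per library and S100A3 had 8, 0 and 0 counts in the A431CT libraries and none in the Dsg2KO libraries, so neither was tested. On the side of S100A2 away from S100A4, S100A16 lay higher in every Dsg2KO library. The 49 other tested genes that start within 1 Mb of a chromosome 1 member had a median log2 fold change of 0.04, 29 of them were above 0, 8 passed the adjusted p-value (16.3%, where 29.6% of all tested genes did), and 0 passed both thresholds (6.03% of all tested genes). Of all 12857 tested genes, 6312 were above 0. Around S100P on chromosome 4 the 13 tested genes had a median of 0.01, and 0 passed both thresholds. By the adjusted p-value alone 1 of the 13 passed (7.69%).

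**Figure D3:**
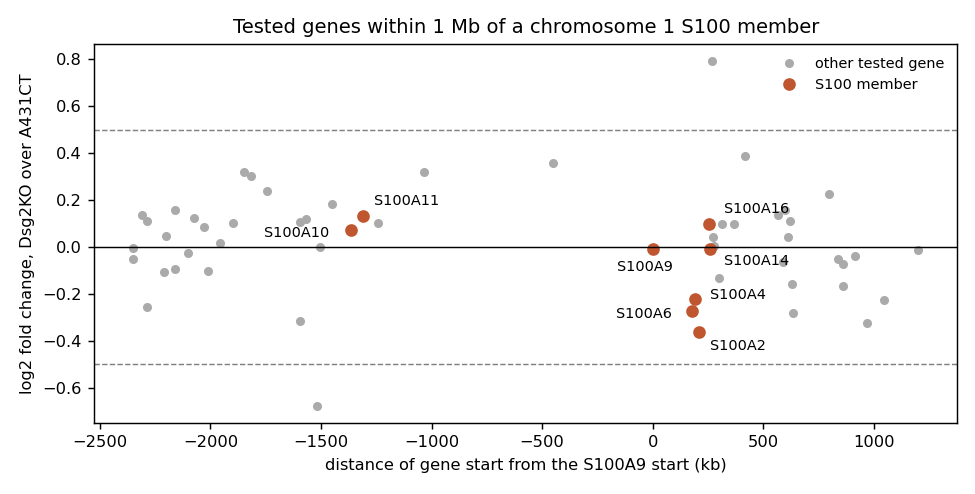
Log2 fold change (Dsg2KO over A431CT) of tested genes that start within 1 Mb of a chromosome 1 S100 member, against the distance in kilobases from the start of S100A9. Members are in orange, other genes in grey and dashed lines mark ±0.5. S100A6, S100A4 and S100A2 sit next to each other at -0.27, -0.22 and -0.36, among neighbours with a median of 0.04. These members were grouped with their values known, S100A4 did not pass the adjusted p-value, and a shared change was not tested.

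Of 10 further S100 genes, S100A12, S100B and S100G had no count, S100A7, S100A7A and S100Z had at most 2 counts in any library, and the 2 genes with enough counts to be tested were S100A1 and S100A13. Neither passed. S100A1 was at 0.865, 1.77 and 1.78 CPM in A431CT cells and 2.08, 2.51 and 3.09 CPM in Dsg2KO cells, and every Dsg2KO library lay above the A431CT libraries. Its log2 fold change was 0.79 (standard error 0.32, 95% interval 0.11 to 1.48), with an adjusted p-value of 0.0761 (edgeR) that ran from 0.0422 to 0.26 over the alternatives, and the log2 fold change was 0.53 without A431CT replicate 1. S100A1 shares 235 exon bases with S100A13 on the opposite strand, so without a stated strand setting reads from the pair cannot be told apart there. S100A13 was well detected, at 32.1 ± 3.02 CPM in A431CT cells and 33.1 ± 3.07 CPM in Dsg2KO cells (SD, n = 3 each), and had a log2 fold change of 0.04 (adjusted p = 0.74, edgeR).

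Of 19 genes whose proteins bind S100 proteins, 15 were tested. None passed both thresholds, where 6.03% of all tested genes did. By the adjusted p-value alone 5 higher and 2 lower genes passed, where 14.3% and 15.3% of all tested genes did. TPM1, a tropomyosin of actin filaments, rose from 147 ± 2.12 to 199 ± 12.2 CPM (SD, n = 3 each, log2 fold change 0.44, adjusted p = 6.61e-06, edgeR). The nonmuscle myosin gene MYH10 rose by 0.36, and MYH9, which encodes the main target of S100A4, had a log2 fold change of 0.05 and did not pass. The lower genes were the annexins ANXA1 and ANXA2, while another annexin, ANXA5, was among the higher ones. ANXA2, the partner of S100A10, fell by 0.17 on the log2 scale, from 270 ± 10.98 to 240 ± 4.35 CPM (SD, n = 3 each, adjusted p = 0.0053, edgeR), and ANXA1 fell by 0.16 (adjusted p = 0.0124, edgeR). S100A10, whose product pairs with ANXA2, had a log2 fold change of 0.07 that did not pass. MYH10, MYH9, ANXA1, ANXA2, ANXA5 and CACYBP were named after their values were seen.

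Receptors for released S100 proteins and the sheddase ADAM17 were read from a list of 10 genes, of which 6 were tested. None passed both thresholds (6.03% of all tested genes), and 2 passed the adjusted p-value alone, both lower (15.3% of all tested genes). ALCAM, an adhesion molecule that also binds S100B, fell from 246 ± 1.57 to 213 ± 9.37 CPM (SD, n = 3 each, log2 fold change -0.20, adjusted p = 0.0016, edgeR). ADAM17, the sheddase, fell by 0.20 on the log2 scale with an adjusted p-value of 0.0495 (edgeR), which was above 0.05 under 9 of 13 alternatives, up to 0.22 without A431CT replicate 3. The classical receptors for calprotectin were low. AGER, which encodes RAGE, was at 2.67, 2.95 and 2.79 CPM in A431CT cells and 1.88, 1.96 and 2.16 CPM in Dsg2KO cells (log2 fold change -0.49, adjusted p = 0.16, edgeR), and TLR4 had at most 3 counts in any library. BSG and NPTN, which also bind S100A9 or S100A8, were abundant at 725 and 134 CPM in A431CT cells, with log2 fold changes of -0.05 and 0.04 that did not pass. AGER, TLR4, BSG and NPTN were named after their values were seen.

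Among 18 transcription factors known or thought to act on S100 promoters, 15 were tested. None passed both thresholds, where 6.03% of all tested genes did. By the adjusted p-value alone 3 higher and 1 lower passed, beside 14.3% and 15.3% of all tested genes. The AP-1 subunits FOSL1 and JUN rose by 0.36 and 0.28 on the log2 scale (adjusted p = 1.49e-04 and 4.74e-04, edgeR), from 139 ± 9.10 to 177 ± 10.4 CPM and from 71.6 ± 1.21 to 87.1 ± 3.30 CPM (SD, n = 3 each). TP63, a transcription factor of basal keratinocytes, stood at 210 ± 3.28 and 207 ± 9.63 CPM, and its log2 fold change of -0.02 did not pass (adjusted p = 0.74, 95% interval -0.11 to 0.07, edgeR). STAT3 and CEBPB had log2 fold changes of -0.04 and -0.08 and did not pass either. TP63, STAT3 and CEBPB were named after their values were seen.

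Cornified envelope genes, the neighbours of the S100 cluster, were nearly silent. Of 28 in the table, 18 had no count in any library and 3 were tested, with median log2 fold change 0.32. IVL, which encodes involucrin, was at 7.08, 8.41 and 9.15 CPM in A431CT cells and 8.19, 11.7 and 11.6 CPM in Dsg2KO cells. Its conditions overlapped, and its log2 fold change of 0.36 did not pass (adjusted p = 0.11, edgeR), although it did without Dsg2KO replicate 1 (adjusted p = 0.0281). FLG, which encodes filaggrin, had a log2 fold change of 0.32 (adjusted p = 0.34, edgeR).

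Epidermal alarm and antimicrobial genes, which tend to accompany S100A8 and S100A9 in inflamed skin, included 8 tested genes of 19. Of these, 1 passed both thresholds, where 6.03% of all tested genes did. This was KRT6A, a keratin of activated keratinocytes, at 8.49, 9.07 and 7.75 CPM in A431CT cells and 3.76, 3.55 and 5.07 CPM in Dsg2KO cells. It fell by 1.03 on the log2 scale (standard error 0.18, adjusted p = 5.62e-04, edgeR), with every Dsg2KO library lower, and near-identical keratin genes can share its reads. LCN2, an iron-withholding protein named after its values were seen, rose by 0.44 (adjusted p = 0.0026, edgeR) and passed the adjusted p-value alone. The median log2 fold change of the list was -0.06.

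**Figure D4:**
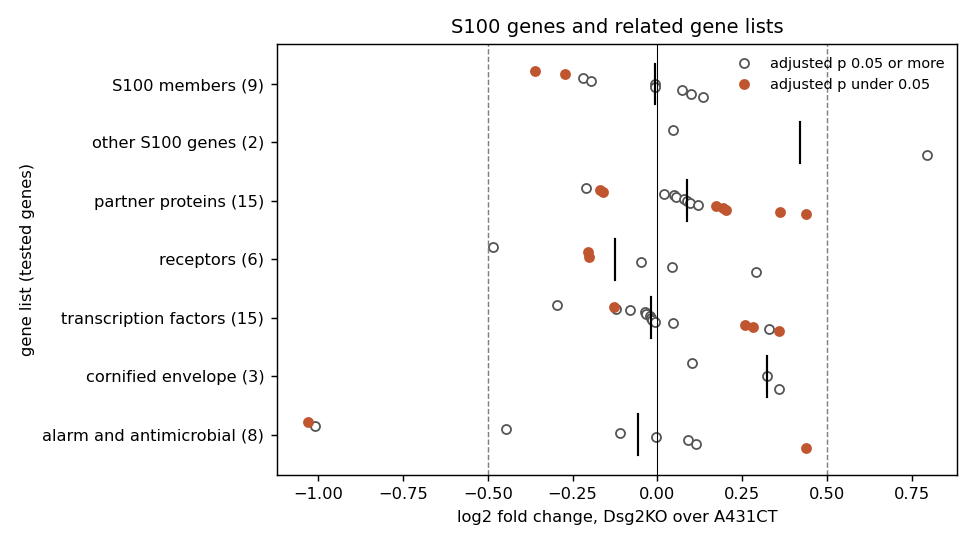
Log2 fold change (Dsg2KO over A431CT) of every tested gene in the S100 family and 6 related lists, with the number tested in brackets, a black bar at each median and dashed lines at ±0.5. Filled orange points have an adjusted p-value under 0.05. KRT6A at -1.03 is the only filled point beyond the dashed lines.

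The genes whose pattern over the 6 libraries was most like the mean of the standardised S100A8 and S100A9 profiles were COMMD9, GTF2H2 and ETFA, with Pearson correlations of 0.986, 0.984 and 0.979. These are the highest of all tested genes, they share the same 6 libraries, and the S100A8 profile rests on 10 and 15 counts per condition, so they serve as a description only.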

How the data were processed

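RNA-seq of 3 A431CT and 3 Dsg2KO libraries was analysed. The authors removed adapters and low-quality reads, aligned the rest to GRCh38/hg38 and quantified genes in CLC Genomics Workbench, and the deposited counts are whole numbers per gene symbol without normalization. The annotation, strand setting and treatment of multiply mapped reads are not given in the sources used here. Library totals, from 12845719 to 16255692 counts, set the precision of low genes.

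R 4.3.3 and edgeR 4.0.16 were used with TMM factors, filterByExpr (minimum count 10, minimum total 15), quasi-likelihood tests of condition alone and p-values adjusted by Benjamini-Hochberg over all 12857 genes tested. A call needed an adjusted p-value under 0.05 and a log2 change of 0.5 or more in either direction. Standard errors are the log2 fold change over the root of F, and intervals use the moderated degrees of freedom. The fit was tested on simulated data. Replicates differed by more than counting error (chi-square per degree of freedom from 2.64 to 4.15). The study calls them biological replicates, and the p-values set the difference between conditions against the spread between these libraries.

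The S100 members and the gene lists were chosen with earlier results of these data known. Named genes were all members, DSG2, list genes past both thresholds, or otherwise the 2 list genes with the smallest p-value, and the 3 genes most correlated with S100A8 and S100A9. The result of 1 list gene is not reported here. Positions and exon lengths are from GENCODE version 44, which matched 12258 tested symbols, and promoters from RefSeq, which matched all 10 members by symbol. The window nearest the canonical GENCODE start was used. Alternatives were other filters and size factors, DESeq2 1.42.0, a likelihood ratio test, a replicate block, other fold change minimums and each library left out. Python 3.11.15 drew the figures.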

Additional observations from a re-analysis of the deposited data

How the results depend on the processing

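Over the 13 refits, which were other filters, scalings and tools, a replicate block and each library left out, S100A2 and S100A6 kept their direction and an adjusted p-value under 0.05 in all 13, with log2 fold changes between -0.41 and -0.30 and between -0.34 and -0.22. No refit put a member past both thresholds. Without a fold change minimum the 2 lower members passed. Total counts brought the members past the adjusted p-value alone to 4, adding S100A11 and S100A16, whose adjusted p-values were then 0.0284 and 0.029 (edgeR); with each library left out the number was from 2 to 3. The replicate numbers showed little pairing over all tested genes (correlations of same-numbered deviations -0.0027, 0.0135 and 0.0539). A replicate block gave 769 genes past both thresholds, 747 of them shared with the 775. It put 3 members past the adjusted p-value alone, with S100A11 at 0.0262 and S100A6 at 1.19e-04 (edgeR).

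Signs turned only for values near 0. S100A9 was at 0.00041 without the low-count filter, 0.0138 with total counts, 0.0914 without A431CT replicate 1, 0.0154 without A431CT replicate 2 and 0.0708 without Dsg2KO replicate 3, with a lowest value of -0.12 without A431CT replicate 3. S100A14 was at 0.0013 without the filter, 0.015 with total counts, 0.0079 without A431CT replicate 2 and 0.0336 without Dsg2KO replicate 3, with a lowest value of -0.0291 without A431CT replicate 3. S100A13 was at -0.0266 without A431CT replicate 1 and -0.0117 without Dsg2KO replicate 3, with a highest value of 0.12 without Dsg2KO replicate 1. Neither total counts nor RLE size factors moved the median of all genes by more than 0.0227.

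Past both thresholds there were 775 genes, from 686 to 795 with each library left out, 652 with DESeq2, 916 without the low-count filter, 3802 without a fold change minimum and 250 with a minimum of 1. S100A1 was the 1 other S100 gene to pass with at least 10 counts in every library, which tests fewer genes, or with the likelihood ratio test. With each library left out the partner list had from 0 to 1 genes (1 without A431CT replicate 2), the cornified envelope list from 0 to 1 (IVL without Dsg2KO replicate 1) and the alarm list from 1 to 2 (2 without A431CT replicate 1, A431CT replicate 2 or Dsg2KO replicate 3). The cause was not tested. Without a fold change minimum 7 partner, 2 receptor, 4 transcription factor and 2 alarm genes passed, where 29.6% of all tested genes did. With the 100 most counted genes left out of the total, the S100 share was 0.199% in A431CT cells and 0.193% in Dsg2KO cells; with each library left out it was from 0.164% to 0.17% and from 0.16% to 0.166%. With the longest transcript as length, the A431CT levels per kilobase were 513 for S100A14, 339 for S100A6, 338 for S100A11, 277 for S100A2, 207 for S100A10, 165 for S100A16 and 11.3 for S100A4. Depth limits S100A8, S100P and S100A4.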

Other observations

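The replicates of each condition were not alike in their S100 levels. A431CT replicate 3 was the lowest A431CT library for 8 of the 9 tested members, and Dsg2KO replicate 3 was the lowest Dsg2KO library for 6 of 9. How often each library was the lowest over all tested genes was not counted, so this is not shown to be particular to the S100 genes. The members' share of all counts was 0.159% in the first and 0.155% in the second, beside 0.165% to 0.171% in the other libraries. What these libraries share was not tested.

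S100A3, which encodes a hair cuticle protein, had 8 counts in A431CT replicate 1 and 0 in each of the other 5 libraries. CSF1R, the receptor for macrophage colony-stimulating factor, was at 552 ± 15.6 CPM (SD, n = 3) in A431CT cells and 502 ± 10.6 CPM (SD, n = 3) in Dsg2KO cells, while PTPRC, the general leukocyte marker, had from 2 to 8 counts per library.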
